A study of Mus musculus with 18 samples.

Results

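The comparison described here sets the Elac2 knockout against wild-type Elac2 in prostate lobes of 30-week-old mice of a prostate tumour model. It covers 16900 of the 55469 genes in the table, namely those whose normalized count averaged at least 10 over its 6 libraries, of 18 in the series. The 3 KO-TRAMP and 3 WT-TRAMP libraries were made from RNA of the ventral and lateral lobes of the prostate, from male mice on a background the labels spell C56NL/6N. Every mouse was TRAMP +/-, that is, it carried 1 copy of a transgene in which the Pb promoter drives the SV40 tumour antigens in prostate epithelium. KO-TRAMP mice additionally lost exon 8 of Elac2 wherever Pb-Cre was active. By its promoter that is prostate epithelium, but which cells of the sampled lobes lost the exon was not tested. WT-TRAMP mice carried wild-type Elac2 and the same transgene. The comparison asks which transcripts of these lobes differ at 30 weeks when Elac2 is deleted by Pb-Cre. How much of each sample was tumour was not tested.

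ELAC2 is the endonuclease that trims the 3′ trailer from precursor tRNAs, in the nucleus and in mitochondria, where tRNAs also punctuate the long polycistronic transcript. TRAMP tumours begin as epithelial hyperplasia and can progress to adenocarcinoma or to poorly differentiated tumours with neuroendocrine features. The tissue around such epithelium holds fibroblasts, smooth muscle, vessels and macrophages, and it is mostly fibroblasts that make the fibrillar collagens and the glycoproteins bound to them.

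Normalized counts are estimated read counts divided by 1 scale factor per library, and each series below gives WT-TRAMP libraries 10, 11 and 12 against KO-TRAMP libraries 16, 17 and 18. These library numbers come from the column headers. Depth was 10185150 to 14830104 reads per library. Library 12 lay between libraries 10 and 11, and library 18 between libraries 16 and 17, at nearly every gene on which the outer pair differed. Among the 1266 genes that differed over 4-fold between libraries 16 and 17 at a mean of at least 50 normalized counts, library 18 was in between at 1251 (98.8%). For library 12 this held at 456 of 472 genes (96.6%). The same share ran from 31.7% to 80.6% for the 6 libraries of the 2 lines at 10 weeks. A weighted sum with 39.5% of library 16 (quartiles over genes 34% and 45.3%) and the rest from library 17 matched library 18 with an SD of 0.10 in log2 units, over 2277 genes with a mean of at least 1000. Against library 16 itself that SD was 1.04, and against library 17 it was 0.48. Library 12 was matched by 43.3% of library 10 (quartiles 36.3% and 50.2%) with an SD of 0.11. The labels give each library as a replicate of its own, and whether libraries 12 and 18 hold RNA of other mice was not tested. All p-values below treat the 6 libraries as independent. The counts of genes called by limma and edgeR are therefore also given without libraries 12 and 18. DESeq2 was not run without them, so its counts below rest on all 6 libraries.

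**Figure D1:**
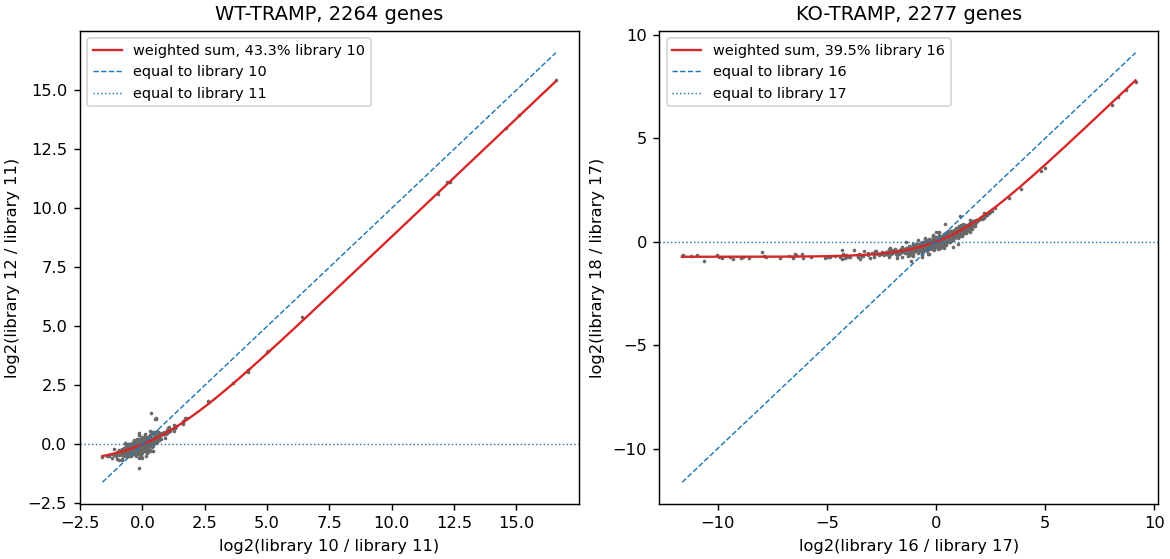
Each point is 1 gene with a mean of at least 1000 normalized counts in its group, WT-TRAMP on the left and KO-TRAMP on the right. The x axis gives the log2 ratio of the 2 outer libraries and the y axis the log2 ratio of the third library to the second, and the points follow the curve of a weighted sum of the outer libraries (43.3% of library 10, 39.5% of library 16) rather than either straight line.

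Markers of tissues and cell types also differed between the libraries of each group. Luminal epithelial keratin Krt18 was at 5226, 6801 and 6208 normalized counts in WT-TRAMP against 6256, 6570.1 and 6553 in KO-TRAMP, so this keratin of the labelled epithelium was plentiful in all 6 libraries. The 18 luminal genes listed stood at a median log2 fold change of −0.22, which was −0.53 without library 16 and 0.05 without library 17. Svs2, a secretory protein of the seminal vesicle, which adjoins the prostate, was at 287775, 1.92 and 128573 against 5665, 20.4 and 2066, near 0 in libraries 11 and 17 and most plentiful in library 10. The list of seminal vesicle genes took 4.35% of all counts in library 10 and at most 0.266% in any knockout library. Chga, chromogranin A of neuroendocrine granules, was at 231, 0 and 119 against 1.03, 6426 and 4005. Libraries 17 and 18 thus held this transcript at a high level, libraries 10 and 12 at a lower one, and libraries 11 and 16 almost none.

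Elac2 itself (chromosome 11, 64979038 to 65002069, plus strand on GRCm38) was at 251, 319.6 and 310.04 normalized counts in WT-TRAMP against 249, 267 and 251 in KO-TRAMP, and the groups overlapped. Its log2 fold change was −0.19 (SE 0.14, adjusted p 0.522 by limma), and an exact two-sided permutation test of the difference gave p = 0.2, where 3 against 3 libraries cannot go below 0.1. The count covers the whole gene, and the deletion removes 1 exon only where Pb-Cre is active, so the level does not check the labels.

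By limma, 36 of 16900 genes reached an adjusted p of at most 0.05 (0.213%), 32 of them higher in KO-TRAMP (0.189%) and 4 lower (0.0237%). Every KO-TRAMP library lay above every WT-TRAMP library for 1819 genes (10.8%) and below for 1602 (9.48%). On libraries 10, 11, 16 and 17 alone these counts were 2525 and 2336. The median log2 fold change over all genes was 0.01. With all 6 libraries, 1302 of the 16900 genes were higher at an unadjusted p under 0.05 by limma, and 987 were lower. Those are the counts to set beside the unadjusted ones given for lists below. Every log2 fold change given is the difference of group means of log2(normalized count + 1), KO-TRAMP minus WT-TRAMP, and it understates the change of genes at low levels. DESeq2 on reads recovered from the table called 805 genes (4.76%), among them all 36 of limma's, and edgeR called 15. Without libraries 12 and 18, limma called 0 genes (341 at an unadjusted p under 0.05) and edgeR likewise 0 (346). The median log2 fold change of the 32 higher genes was 1.81 with all libraries and 1.82 without those 2. Leaving out 1 library, limma called 0 genes without library 10, 12 or 18, 2 without library 11, 13 without library 17 and 3011 without library 16.

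**Figure D2:**
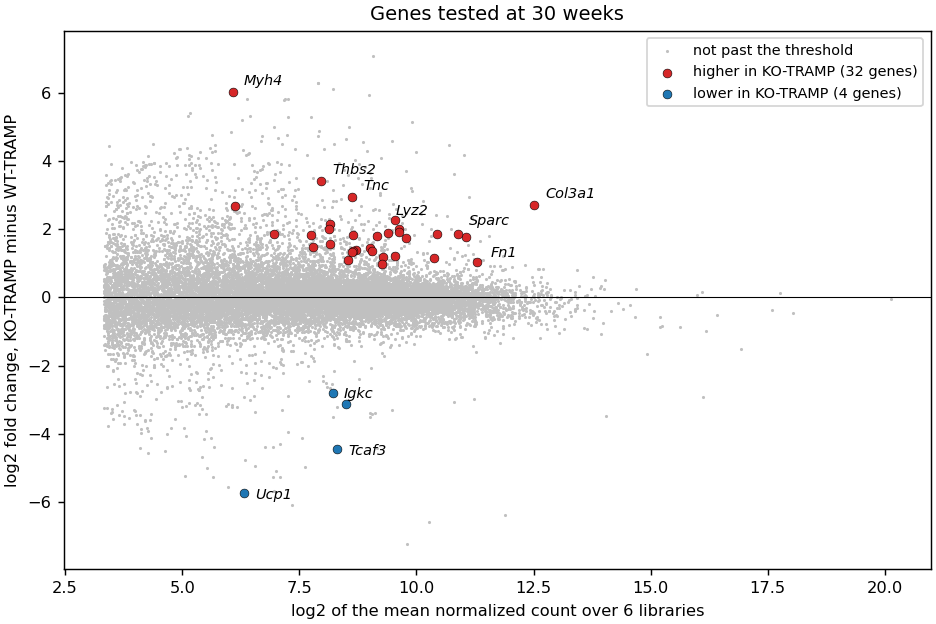
Each point is 1 of the 16900 genes tested, with the log2 of its mean normalized count over the 6 libraries on the x axis and the log2 fold change (KO-TRAMP minus WT-TRAMP) on the y axis. The 32 genes past the threshold that were higher in KO-TRAMP (red) have log2 fold changes of 0.99 to 6.03, and the 4 that were lower (blue) include Tcaf3 at −4.45 and Ucp1 at −5.74.

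Genes of the extracellular matrix made up the largest class among those that rose. Of the 32, 16 belonged to 8 lists of matrix genes, 4 to a complement list, 2 to a macrophage list (C1qb is in both of these) and 2 to a skeletal muscle list. Vim stood in a list of mesenchymal genes. The matrix lists together held 135 genes tested, of which 67 lay above WT-TRAMP in every KO-TRAMP library and 3 below, with a median log2 fold change of 0.84. Over all genes tested, 10.8% lay above and 9.48% below, the shares to set beside such counts here and for each list below. The other 8 higher genes, in none of the lists, were Mgp, Cd93, Aebp1, Chl1, Svep1, Heg1, C7 and Bicc1.

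Fibrillar collagens form the tension-bearing fibres of connective tissue, and 5 of the 10 tested rose, with 6 above every WT-TRAMP library and none below. Col3a1 (chromosome 1, 45311538 to 45349706), which encodes the chain of type III collagen, was at 1417, 1335 and 1817 normalized counts in WT-TRAMP against 13417, 7206 and 9869.9 in KO-TRAMP. Its log2 fold change was 2.71 (SE 0.25, adjusted p 0.0401 by limma), and the lowest knockout library held several times the highest wild-type one. Col1a2 (chromosome 6, 4504814 to 4541544), a chain of type I collagen and the gene with the smallest p, was at 923, 976 and 1024 against 3538, 3165 and 3249, a log2 fold change of 1.77 (SE 0.10, adjusted p 0.0135 by limma). The spread within each group was small for this gene, and library 16, where Chga was near 0, stood close to library 17. Col1a1, the other type I chain, was at 542, 651 and 571 against 2762, 1690.3 and 2104 (log2 fold change 1.87, limma adjusted p 0.0415). For Col5a2 and Col5a1, chains of the type V collagen that starts fibrils, the log2 fold changes were 2.27 and 1.82 (limma adjusted p 0.0415 and 0.0415). The 2 members with a fold change below 0, Col27a1 and Col24a1, overlapped between the groups, at log2 fold changes of −0.11 and −0.29. In bulk tissue, more cells of a kind and more RNA per cell cannot be told apart, here and in each result below. Without libraries 12 and 18 the list's median log2 fold change was 1.52 against 1.63, and without library 16 it was 1.68.

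**Figure D3:**
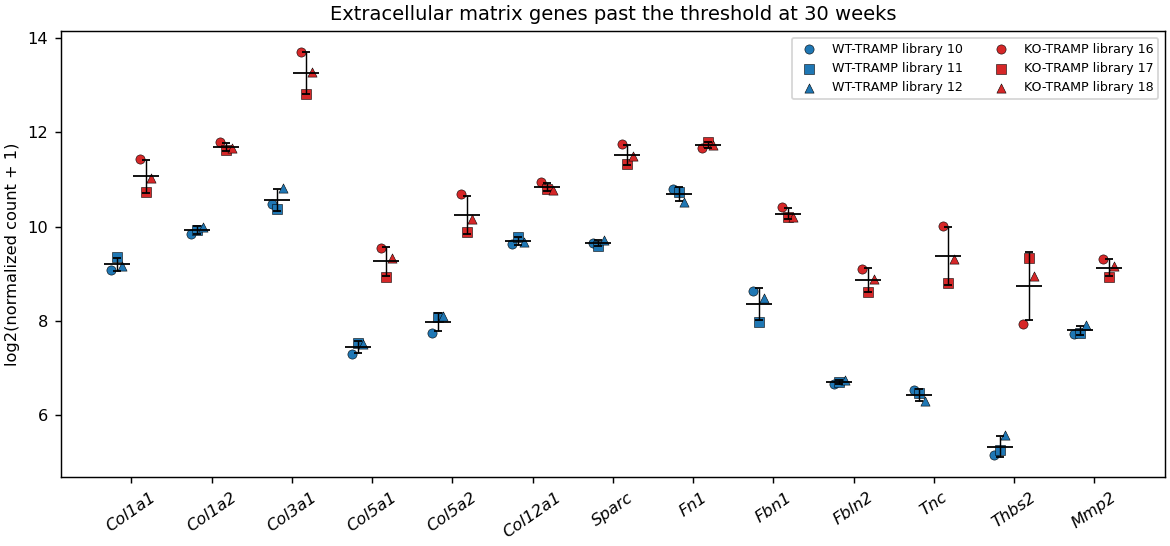
The y axis gives log2(normalized count + 1) for 13 matrix genes in each of the 6 libraries, with WT-TRAMP in blue and KO-TRAMP in red, and black bars for the mean and SD of 3 libraries. For every gene shown the 3 knockout libraries lie above the 3 wild-type ones, and library 16 (red circles) is the highest of the 6 for Col3a1 and Tnc but the lowest knockout library for Thbs2.

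Promoter windows of 3 of these genes are shown because the genes moved together, each running from 250 bases before to 50 after the RefSeq start site on GRCm38.p6. Capitals mark words of known promoter elements, searched on both strands. One is TATAAA, the binding word of the basal transcription machinery in many tissue-specific genes. The other is CCAAT, bound by the factor NF-Y. They are matches of letters only, counted anywhere in the window, and whether they act as promoter elements was not tested. TATAAA begins at −117 from the start site in Col3a1 and at −126 in Tnc, and Col1a2 has no match. The windows lie at chr6:4505368-4505667, plus strand (Col1a2), chr1:45311288-45311587, plus strand (Col3a1) and chr4:64046966-64047265, minus strand (Tnc).
Col1a2: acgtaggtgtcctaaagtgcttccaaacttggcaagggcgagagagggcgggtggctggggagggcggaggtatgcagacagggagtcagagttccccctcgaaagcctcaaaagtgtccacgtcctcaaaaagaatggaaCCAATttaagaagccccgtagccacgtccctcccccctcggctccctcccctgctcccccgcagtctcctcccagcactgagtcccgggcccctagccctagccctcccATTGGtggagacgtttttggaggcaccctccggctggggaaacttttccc
Col3a1: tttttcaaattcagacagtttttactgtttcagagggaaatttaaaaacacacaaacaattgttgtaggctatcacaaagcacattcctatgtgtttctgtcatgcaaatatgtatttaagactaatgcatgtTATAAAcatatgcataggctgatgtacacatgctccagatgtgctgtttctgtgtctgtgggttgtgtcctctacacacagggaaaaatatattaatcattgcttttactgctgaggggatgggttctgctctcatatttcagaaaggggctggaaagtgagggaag
Tnc: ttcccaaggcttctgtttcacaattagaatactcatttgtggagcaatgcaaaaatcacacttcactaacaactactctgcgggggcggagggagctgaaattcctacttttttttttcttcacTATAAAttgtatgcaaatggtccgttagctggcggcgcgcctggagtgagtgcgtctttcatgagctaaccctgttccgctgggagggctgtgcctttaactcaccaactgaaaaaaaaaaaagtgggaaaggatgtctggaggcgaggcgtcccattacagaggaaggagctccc
Of the 32 genes that rose, 22 had a window, and TATAAA occurred for 8 (36.4%). Among all 27025 genes with windows of this length the share was 15.7%, and among the 11497 of them tested here 9.31%. CCAAT was found for 6 of the 22 (27.3%), where all genes gave 41.1%.

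Collagens outside the fibrillar family followed in part. Of 14 beaded, network and fibril-associated collagens, 9 lay above every WT-TRAMP library, and Col12a1, a fibril-associated collagen, passed the test at 790.01, 883 and 812 against 1963, 1786 and 1763 normalized counts (log2 fold change 1.15, limma adjusted p 0.0387). Col14a1, also fibril-associated, had a log2 fold change of 2.06 (limma adjusted p 0.0749). For Col8a1, a network collagen of vessel walls, it was 2.89 (limma adjusted p 0.245). Col10a1, known from hypertrophic cartilage, was at 0, 1.92 and 1.14 against 3.09, 244 and 147, high in libraries 17 and 18 alone. Col6a3, a chain of the beaded type VI collagen, did not separate the groups, at 4018, 1839 and 2837 against 4511, 1637 and 2548. The log2 fold change of Col7a1, of anchoring fibrils, was −0.50, and it too overlapped.

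Enzymes that modify and cross-link collagen were higher in 22 of 24 cases, with 12 above every WT-TRAMP library and a median log2 fold change of 0.67. Adamts2, which cuts the propeptide from procollagen, passed the test, at 44.8, 57.6 and 58.1 against 175, 220.1 and 196 (log2 fold change 1.87, limma adjusted p 0.0415). Lox, the lysyl oxidase that cross-links collagen and elastin, was at 121, 159 and 133 against 1571, 429 and 810.4 (log2 fold change 2.57, limma adjusted p 0.139), with library 16 far above the others. Its relative Loxl1 had a log2 fold change of 2.04 (limma adjusted p 0.0627).

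Matricellular proteins signal from the matrix to cells rather than bear load. Of the 20 genes tested in their list, which also holds the structural protein fibronectin, 5 rose. Sparc (chromosome 11, 55394500 to 55423183), a collagen-binding glycoprotein, was at 803, 769 and 840.1 normalized counts in WT-TRAMP against 3441, 2582 and 2877 in KO-TRAMP. Its log2 fold change was 1.87 (SE 0.13, adjusted p 0.0229 by limma). Thbs2, thrombospondin 2, was at 34.7, 37.4 and 46.7 against 243, 647 and 493 (log2 fold change 3.41, SE 0.38, adjusted p 0.0432 by limma), the widest change among the matrix genes that rose. Tnc, tenascin C, was at 91.8, 88.3 and 77.5 against 1035, 443 and 637 (log2 fold change 2.94, limma adjusted p 0.0415). These genes differed in which knockout library led, since library 16 was highest for Tnc and library 17 for Thbs2. Fibronectin (Fn1) and Tgfbi, a matrix protein induced by TGF-beta, had log2 fold changes of 1.04 and 1.56 (limma adjusted p 0.0415 and 0.0415). Thbs1, at 688, 769 and 701 against 2054, 5466 and 4220.1, lay above WT-TRAMP in every knockout library without passing (log2 fold change 2.33, limma adjusted p 0.0923). Smoc1, a calcium-binding relative of Sparc, was the one member below WT-TRAMP in every knockout library (log2 fold change −0.92, limma adjusted p 0.338).

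In the elastic fibre, 2 of 17 genes rose and 10 lay above. Fbn1, the fibrillin of microfibrils, was at 396, 252 and 356 against 1357, 1183 and 1182 (log2 fold change 1.91, limma adjusted p 0.0415). Fbln2, fibulin 2, was at 99.6, 104 and 106 against 546, 389 and 476 (log2 fold change 2.17, limma adjusted p 0.0281). Ltbp3, which binds latent TGF-beta, ran the other way and lay below in every knockout library (log2 fold change −0.74, limma adjusted p 0.327). None of 11 proteoglycans, small and large, passed in limma (5 did in DESeq2, and 6 were higher at an unadjusted p under 0.05). Decorin (Dcn), which binds collagen fibrils, was at 1142, 924 and 1049 against 1737, 3601 and 2807, highest in library 17. Biglycan (Bgn) was at 514, 688 and 574 against 1325, 1253 and 1309 (log2 fold change 1.14, limma adjusted p 0.0501). Both lay above WT-TRAMP in every knockout library.

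Basement membrane genes, which include epithelial laminins and integrins, were divided. Their median log2 fold change was −0.13 over 25 genes, 12 higher and 13 lower, and it was 0.16 among those with a mean of at least 100. Of these genes 7 lay above every WT-TRAMP library and 1 below. Col4a2 of type IV collagen rose, at 495, 376 and 479.9 against 1026, 1057 and 1062 (log2 fold change 1.23, limma adjusted p 0.0432). Nid2, a nidogen, had a log2 fold change of 1.32 without passing (limma adjusted p 0.308). Lama5, a laminin alpha chain of epithelium, was at 2378, 3715 and 3005 against 3029, 1846 and 2401, with the groups overlapping. Among 14 matrix metalloproteinases, Mmp2, a gelatinase made by fibroblasts, rose, at 211, 214 and 241 against 631, 488 and 571 (log2 fold change 1.33, limma adjusted p 0.0415). Mmp3 was at 1.12, 0 and 2.28 against 63.8, 16.8 and 23, without overlap and without passing (limma adjusted p 0.202). Mmp7, matrilysin of glandular epithelium, overlapped, at 3499, 4782 and 4197 against 5839.8, 1094 and 2852. Of the tissue inhibitors, Timp1 was at 26.9, 22.1 and 31.9 against 587, 61.2 and 276, with a log2 fold change of 2.97 (limma adjusted p 0.307) and a wide spread among the knockout libraries.

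Signalling genes of the stroma showed a mixed picture, with 0 called in limma among TGF-beta, IGF and Wnt lists together. Igf1, the growth factor made by stromal cells, was at 178, 148 and 124 against 1273, 375 and 599 (log2 fold change 2.14, limma adjusted p 0.21), above WT-TRAMP in every knockout library. Log2 fold changes of the binding proteins Igfbp4 and Igfbp2 were 2.15 and 2.40 (limma adjusted p 0.0946 and 0.327). The receptor Igf1r was at 2802, 2514 and 2587 against 2344, 773 and 1488, lowest in library 17. The 14 genes of TGF-beta signalling had a median of −0.02, and its ligands Tgfb3 and Tgfb2 had log2 fold changes of 1.51 and −0.82 (limma adjusted p 0.327 and 0.381). Sfrp1, a secreted Wnt antagonist, was at 215, 248 and 233 against 1532, 399 and 782 (log2 fold change 1.75, limma adjusted p 0.304). These lists gave 3, 6 and 3 higher genes at an unadjusted p under 0.05, and DESeq2 called 1, 5 and 3.

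Markers of fibroblasts and endothelium were mostly higher in the knockout libraries. Of 12 fibroblast markers 11 were higher and 7 above every WT-TRAMP library, with a median log2 fold change of 1.03. Rspo3 ran against the list with overlap, at 190, 105 and 157 against 113, 51.8 and 60.6 (log2 fold change −1.04, limma adjusted p 0.356). Ly6a, the marker of highest mean level, overlapped too, with a log2 fold change of 0.02. Pdgfra, a growth factor receptor of fibroblasts, was at 452, 345 and 369 against 860.1, 689.5 and 699 (log2 fold change 0.95, limma adjusted p 0.117). Endothelial markers were higher in 15 of 15, 9 of them above, at a median of 0.97. Pecam1, an adhesion molecule between endothelial cells, was at 107, 115 and 125 against 158, 322 and 233 (log2 fold change 0.97, limma adjusted p 0.327). Vwf, von Willebrand factor, was at 178, 76.8 and 172 against 139.9, 2425 and 1519, high in libraries 17 and 18 and not in library 16. The mean of log2 levels over the fibroblast list ran from 6.06 to 6.36 in WT-TRAMP and from 6.91 to 7.16 in KO-TRAMP, and thus moved with the matrix genes. The part of fibroblast content in the rise of matrix genes was not tested. No gene of either list passed in limma (5 and 5 in DESeq2, 8 and 9 higher at an unadjusted p under 0.05). Smooth muscle genes were split by library and had a median of −0.08, with Myh11, its myosin, at 13571, 7495 and 10324 against 2759, 14922 and 10289.7. All 12 were lower in library 16 than in library 17. 

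Skeletal muscle is no part of the prostate, and 2 of 13 of its genes rose. On average 12 were higher, 6 lay above every WT-TRAMP library and none below, and the median log2 fold change was 1.64 (2.41 without library 16). Myh1, a fast myosin heavy chain, was at 17.9, 18.2 and 17.1 against 152, 106 and 104 (log2 fold change 2.68, limma adjusted p 0.0401). Myh4, another, was at 0, 1.92 and 1.14 against 57.6, 204 and 143 (log2 fold change 6.03, limma adjusted p 0.045), and with so few reads in WT-TRAMP the size of its change depends on the pseudocount. Both belong to a cluster of similar genes among which reads can be split. Acta1, the skeletal muscle actin and the only member with a fold change below 0, overlapped, at 513, 323 and 423 against 234, 412 and 359.

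Complement genes stood above WT-TRAMP without exception. All 12 tested were above in every knockout library, 4 passed the test, and the median log2 fold change was 1.14. Serping1, the C1 inhibitor, was at 375, 369 and 386 against 889, 875 and 833 normalized counts (log2 fold change 1.20, limma adjusted p 0.0313). The protease C1s1 and the component C4b had log2 fold changes of 1.38 and 1.36 (limma adjusted p 0.0401 and 0.0415), and close copies of both genes exist. C1qb, a chain of C1q made by macrophages, was at 254, 233 and 223 against 506, 489.8 and 517 (log2 fold change 1.09, limma adjusted p 0.0415). C3, the central component, was at 429, 520.2 and 513 against 2769.7, 1299.6 and 2050, a log2 fold change of 2.00 that did not pass (limma adjusted p 0.0749). C7, a terminal component, also rose, from outside the list (95.1, 119.96 and 111 against 559, 340.4 and 448, log2 fold change 2.02, limma adjusted p 0.0415). The list had a median of 1.04 without library 16, 1.23 without library 17 and 1.18 without libraries 12 and 18.

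Macrophage genes showed the same direction in 13 of 14 cases, 10 of them above. Lyz2 (chromosome 10, 117277331 to 117282321), lysozyme of myeloid cells, with a close relative in Lyz1 that can share its reads, was at 328, 309.98 and 315 against 1419.8, 1176 and 1230.2 normalized counts. The log2 fold change of 2.00 (SE 0.11, adjusted p 0.0135 by limma) had the second smallest p of all genes. Cd163 and Mrc1, scavenger receptors of tissue macrophages, had log2 fold changes of 2.76 and 1.60 (limma adjusted p 0.147 and 0.117). Mertk, a receptor for the uptake of dying cells, was the exception, with −0.77 (limma adjusted p 0.376). Of 7 class II antigen presentation genes 4 lay above WT-TRAMP, at a median of 0.54. T cell genes had a median of −0.35 over 10, 2 above and 1 below. Neither of these 2 lists had a gene past the threshold in limma (1 and 1 in DESeq2, 4 and 2 higher at an unadjusted p under 0.05).

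Of the other genes that rose, Mgp, matrix Gla protein, an inhibitor of calcification, was at 398, 371 and 429.7 against 1269, 1429 and 1334 (log2 fold change 1.75, SE 0.11, adjusted p 0.0156 by limma). Cd93 and Heg1, both membrane proteins of endothelium, had log2 fold changes of 1.84 and 0.99 (limma adjusted p 0.0333 and 0.0415). Aebp1, a collagen-binding protein, and Svep1, a large secreted adhesion protein, rose by 1.46 and 1.80 (limma adjusted p 0.0401 and 0.0415). Chl1, a neural cell adhesion molecule, was at 242, 294 and 317 against 869, 1251 and 1076 (log2 fold change 1.90, limma adjusted p 0.0401). Vim, the mesenchymal intermediate filament, and Bicc1, an RNA-binding protein, rose by 1.36 and 1.47 (limma adjusted p 0.0415 and 0.0432).

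The 4 genes that fell had a median log2 fold change of −3.78, and −3.83 without libraries 12 and 18. Tcaf3 (chromosome 6, 42584866 to 42597692), a member of the family of TRP channel-associated factors, was at 395, 800.4 and 630.3 normalized counts in WT-TRAMP against 27.8, 18.2 and 33.4 in KO-TRAMP. The log2 fold change was −4.45 (SE 0.34, adjusted p 0.0281 by limma). Its relative Tcaf2, with which it may share reads, overlapped at 608, 1333 and 1154 against 760.3, 294 and 471 (limma adjusted p 0.369). Tcaf1 was at 1018, 842 and 843 against 652, 925 and 823 and overlapped as well. The gene model Gm5615, of no known role, also fell. At 10 weeks the log2 fold change of Tcaf3 was 0.99, and the test of the difference between ages had an adjusted p of 0.365.

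Igkc, the constant region of the kappa light chain made by plasma cells, fell, at 539, 459.7 and 559.7 against 48.4, 110.1 and 75.2 (log2 fold change −2.79, limma adjusted p 0.0432). Ighm and Jchain, also of antibody-making cells, lay below WT-TRAMP in every knockout library without passing, with log2 fold changes of −1.63 and −1.91 (limma adjusted p 0.152 and 0.284). Pou2af1, a B cell coactivator, ran against them at 6.71, 7.68 and 6.84 against 2.06, 157 and 68.9. Under the minimum level were 6 of the 11 B cell genes listed.

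Ucp1, the uncoupling protein of brown fat, fell, at 54.8, 259 and 162 against 2.06, 1.46 and 1.04 normalized counts (log2 fold change −5.74, SE 0.64, adjusted p 0.0432 by limma). With 1 or 2 reads in each knockout library, the size of this change depends on the pseudocount. Fat genes mostly lay lower, with 8 of 11 below every WT-TRAMP library and a median log2 fold change of −3.21. Plin1, which coats lipid droplets, was at 32.5, 110.4 and 84.3 against 2.06, 12.4 and 5.22 (limma adjusted p 0.222). Plin4, a relative, was at 562, 472 and 490.1 against 49.4, 455 and 317 (limma adjusted p 0.44). The list's mean log2 level was 6.11, 7.29 and 6.81 in WT-TRAMP and 2.89, 5.33 and 4.75 in KO-TRAMP. By this mean the knockout libraries all stood lower, library 16 lowest, and without library 16 the median log2 fold change was −1.45. Pparg and Dio2 ran against the list, with log2 fold changes of 1.39 and 0.16. Pparg was at 17.9, 50.9 and 22.8 against 18.5, 184 and 116. Fabp4 overlapped, at 225, 720 and 459 against 46.3, 431 and 288. Per the study's methods, the lobes were freed of seminal vesicle and fat under a microscope. What part any remaining fat had in the levels of these genes was not tested.

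The prostate's own secretory products were lower in all 8 cases, with a median of −0.90, 4 below every WT-TRAMP library and 0 past the threshold in limma (6 lower at an unadjusted p under 0.05, 2 in DESeq2). Tgm4, the transglutaminase of the coagulum, came closest at 1508, 632 and 1105 against 95.7, 26.2 and 41.8 (log2 fold change −4.40, limma adjusted p 0.0547). Pbsn, probasin, after which the Pb promoter is named, was at 549, 129 and 356 against 169.8, 42.3 and 86.7, and library 16 overlapped WT-TRAMP. For all 8 secretory genes library 17 was the lowest of the 6. Their median was −1.17 without library 16 and −0.62 without library 17. Of the 18 luminal epithelial genes, 7 were higher and 11 lower, with 1 above every WT-TRAMP library and 2 below. None passed in limma (1 higher and 2 lower at an unadjusted p under 0.05), and DESeq2 called 2. The one above was Krt8, a luminal keratin, at 2946, 3788 and 3429 against 4282, 9142 and 6918 (limma adjusted p 0.327).

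Interferon-stimulated genes were lower in all 27 cases, and 22 lay below every WT-TRAMP library. None passed the test in limma (20 at an unadjusted p under 0.05, 6 in DESeq2), and the median log2 fold change was −0.90 beside 0.01 for all genes. Oasl2, an oligoadenylate synthetase-like protein, was at 3529, 3169 and 3254 against 2268, 658 and 1268 (log2 fold change −1.42, limma adjusted p 0.327). Ifit3, an antiviral protein with close copies, was at 1399.9, 853 and 1110.2 against 690.4, 265 and 408 (log2 fold change −1.38, limma adjusted p 0.312). Library 17 was the lowest of the 6 for 24 of the 27, and library 16 lay above library 17 for 25. The median was −1.11 without library 16, −0.64 without library 17 and −0.82 without libraries 12 and 18. At 10 weeks 0 of the 27 were higher in the knockout, with a median of −0.50.

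The windows of 2 of these genes are shown because they hold the core of the interferon-stimulated response element, GAAANNGAAA, which is in capitals on either strand. They are from RefSeq on GRCm38.p6 at chr19:34583279-34583578, plus strand (Ifit3) and chr4:156200769-156201068, minus strand (Isg15).
Ifit3: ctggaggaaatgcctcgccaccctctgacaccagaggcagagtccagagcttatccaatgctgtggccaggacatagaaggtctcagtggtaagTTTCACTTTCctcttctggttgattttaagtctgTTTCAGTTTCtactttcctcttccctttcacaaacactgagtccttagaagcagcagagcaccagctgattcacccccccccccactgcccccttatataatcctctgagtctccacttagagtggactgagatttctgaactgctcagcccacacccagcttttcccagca
Isg15: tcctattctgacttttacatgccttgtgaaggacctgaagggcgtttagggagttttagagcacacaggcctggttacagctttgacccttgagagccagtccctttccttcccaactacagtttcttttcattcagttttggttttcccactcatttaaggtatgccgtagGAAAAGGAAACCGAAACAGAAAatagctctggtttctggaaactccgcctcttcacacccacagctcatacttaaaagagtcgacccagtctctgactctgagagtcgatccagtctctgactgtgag
Matches overlap in Isg15, a ubiquitin-like protein that was picked for display after its values were seen and whose levels were 413, 278 and 301 against 228, 87.5 and 129. The core occurred for 12 of the 20 listed genes with a window (60%) and for 3.99% of all genes with windows of the same length.

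Class I antigen presentation genes were lower in all 14 cases at a median of −0.42, and B2m, beta-2 microglobulin, was at 18113, 21536 and 19893 against 18247, 7773 and 11467, so library 16 overlapped WT-TRAMP. Of 21 genes of the unfolded protein response 20 were lower (median −0.42, 6 below), and the exception was the chaperone Calr with a log2 fold change of 0.22. Ern1, which encodes the sensor IRE1, was at 2419, 2716 and 2791 against 2369, 1016 and 1382, below WT-TRAMP throughout but by little in library 16. Neither list had a gene past the threshold in limma or DESeq2 (3 and 5 lower at an unadjusted p under 0.05). Library 17 was the lowest of the 6 for all 14 class I genes and for 20 of the 21 others. The 2 medians were −0.17 and −0.27 without library 17, and −0.73 and −0.62 without library 16.

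Neuroendocrine and cell cycle genes differed more between the knockout libraries than between the groups. Foxa2, a forkhead factor, was at 6.71, 0.96 and 3.42 against 0, 1129.8 and 685. Pcsk1, a prohormone convertase, was at 94, 4.8 and 59.3 against 15.4, 6179 and 3579. Both were high in libraries 17 and 18 and at 0 or low in library 16. Isl1 and Pou3f2, which are neural factors too, ran against the list, Pou3f2 at 419.6, 0 and 140.2 against 0, 0 and 1.04. The lists of 15 factors and 18 effectors had medians of 1.72 and 1.33, which became 4.05 and 3.71 without library 16 and 0.22 and −0.06 without library 17. None of either list passed in limma (DESeq2 called 2 and 2; at an unadjusted p under 0.05 there were 0 and 1 higher). Stmn2, a tubulin-binding protein of neurons, was the one effector above WT-TRAMP in all 3 knockout libraries, at 2.24, 0.96 and 1.14 against 48.4, 27 and 28.2 (limma adjusted p 0.0832), and there library 16 was the highest.

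Mitotic genes were on average higher in all 22 cases (median 0.77), but none separated the groups. Mki67, a marker of dividing cells, was at 6936, 3291 and 4848 against 2713, 12034 and 8474. Top2a, a topoisomerase of dividing cells, was at 3508, 1440.5 and 2317 against 1607, 7702 and 5109. The list's mean log2 level was 7.74 in library 16, the lowest of the 6, and 10.16 in library 17, the highest. CCAAT occurred in the windows of 16 of 19 mitotic genes with one (84.2%, where all genes gave 41.1%). Glycolytic and hypoxia genes had a median of 0.71 over 26, 11 of them above WT-TRAMP and 1 below. Pkm, pyruvate kinase, was at 3959, 4687 and 4294 against 5336, 10188 and 8421 (limma adjusted p 0.327), so the groups did not overlap and library 16 was the closest to WT-TRAMP. Limma called 0 of these 2 lists, DESeq2 0 and 7, and 0 and 11 were higher at an unadjusted p under 0.05.

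**Figure D4:**
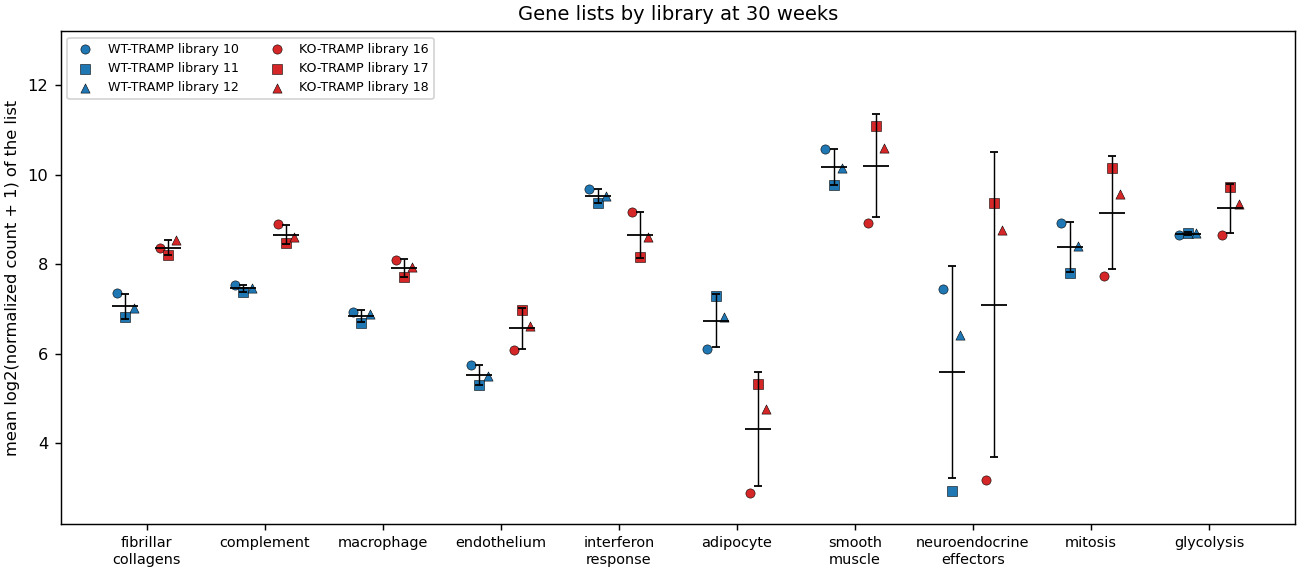
The y axis gives the mean of log2(normalized count + 1) over the tested genes of each of 10 lists in every library, with black bars for the mean and SD of 3 libraries. Fibrillar collagens, complement and macrophage genes lie higher in all 3 knockout libraries, whereas neuroendocrine effectors range from 3.18 in library 16 to 9.36 in library 17.

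Mitochondrial transcripts, which ELAC2 helps to release, had a median log2 fold change of 0.07 over the 9 mRNAs analysed here, beside 0.01 for all genes. The subunit mt-Co1 of cytochrome oxidase was at 63492, 69279 and 64611 against 67838, 80106 and 72885, with overlap. A complex I subunit, mt-Nd5, was at 4464, 6187 and 5376 against 5201, 2164 and 3163 (limma adjusted p 0.394), lowest in library 17. Nuclear genes of mitochondrial RNA processing had a median of 0.07 over 22. For all 38 subunits of complexes II to V tested the fold change was above 0, 28 of them above WT-TRAMP in every library, at a median of 0.41. Complex I (35 of 37 higher, median 0.36) and mitochondrial ribosomal proteins (66 of 78, median 0.25) were likewise mostly higher. Cox6c, of complex IV, was at 695, 674 and 682 against 891, 1410.4 and 1162 (limma adjusted p 0.276), where library 17 was the highest. In none of these 5 lists did limma call a gene, while DESeq2 called 5 of complexes II to V and 1 of complex I. At an unadjusted p under 0.05, 26 of complexes II to V and 16 of complex I were higher.

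Apart from these groups, the widest fold changes among genes with a mean of at least 100 and no overlap between the groups were mostly of genes that library 17 led. Snx31, a sorting nexin of urothelium, was at 0, 0.96 and 2.28 against 5.14, 581 and 328 (limma adjusted p 0.327). Sfrp5, a Wnt antagonist, was at 5.59, 0.96 and 1.14 against 6.17, 472 and 261 (limma adjusted p 0.338). In both, library 16 was close to WT-TRAMP. Dmbt1, an epithelial mucin-like protein, was led by library 16 instead, at 3.36, 3.84 and 4.56 against 448, 27 and 129 (limma adjusted p 0.226). Downward, Pck1, which makes phosphoenolpyruvate in liver and fat, was at 83.9, 409.8 and 247 against 0, 14.6 and 13.6 (limma adjusted p 0.261), which is the arrangement of the fat genes. Enpp2, autotaxin, was at 636, 234 and 422 against 51.4, 133 and 75.2 (limma adjusted p 0.215). Cdo1, cysteine dioxygenase, was at 8432, 684 and 4138 against 515, 277 and 343 (limma adjusted p 0.327), and libraries 10 and 12 set most of its difference. No gene of this paragraph passed in limma, whereas DESeq2 called all 6.

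The study's text also names single genes in connection with prostate cancer, which were chosen there partly from these samples and so give no independent evidence. Of 15 listed, 1 (Sparc) passed in limma and 10 in DESeq2, 8 higher and 2 lower. Vcan, the large matrix proteoglycan versican, was at 279.8, 98.8 and 145 against 703, 429 and 551 (limma adjusted p 0.245). Nox4, an oxidase that makes hydrogen peroxide, was at 5.59, 6.72 and 6.84 against 22.6, 25.5 and 28.2 (limma adjusted p 0.232). Each lay above WT-TRAMP in every knockout library. Tns1, an adhesion protein rich in smooth muscle, was below at 5138, 3093 and 3634 against 1232, 2079 and 1878 (limma adjusted p 0.244). Semaphorins did not share a direction, since the log2 fold change was 2.37 for Sema3a, −0.80 for Sema5a, −0.29 for Sema3c and −0.45 for Sema6a. The study reports reduced levels of these semaphorins and of Nox4 in KO-TRAMP mice, whereas Nox4 and Sema3a were higher here, without passing in limma. Thsd4, a matrix protein that binds fibrillin, was at 51.5, 128 and 46.7 against 53.5, 7674 and 4499.96, high in libraries 17 and 18 and within the wild-type range in library 16. Over 10 Hox genes, which set position along the body axis, the median was 0.68. Hoxd9 was at 54.8, 1.92 and 30.8 against 9.26, 355 and 238, in the same arrangement.

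Each table has its own scale, so the 2 ages were compared through the effect of the knockout within each. In limma, 0 genes passed the test that the effect differed between 30 and 10 weeks, of 16431 tested (2146 at an unadjusted p under 0.05, smallest adjusted p 0.106). Without library 16 it called 1930 genes and without library 3 of WT-TRAMP at 10 weeks 16. Of the 32 genes that rose at 30 weeks, 27 had a fold change above 0 at 10 weeks, and the median there was 0.25 against 1.81. Among all genes with a value at both ages, 8195 of 16334 were above 0 at 10 weeks. Because the 32 were picked by their 30-week values, smaller values at 10 weeks follow in part from that choice. Heg1 came nearest to its later value, with 0.56 at 10 weeks and 0.99 at 30. For Sparc the log2 fold changes were 0.17 and 1.87 (adjusted p of the difference 0.106), and for Tgfbi −0.56 and 1.56 (adjusted p of the difference 0.143). Complement genes had a median of 0.09 at 10 weeks and mitotic genes −0.41.

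**Figure D5:**
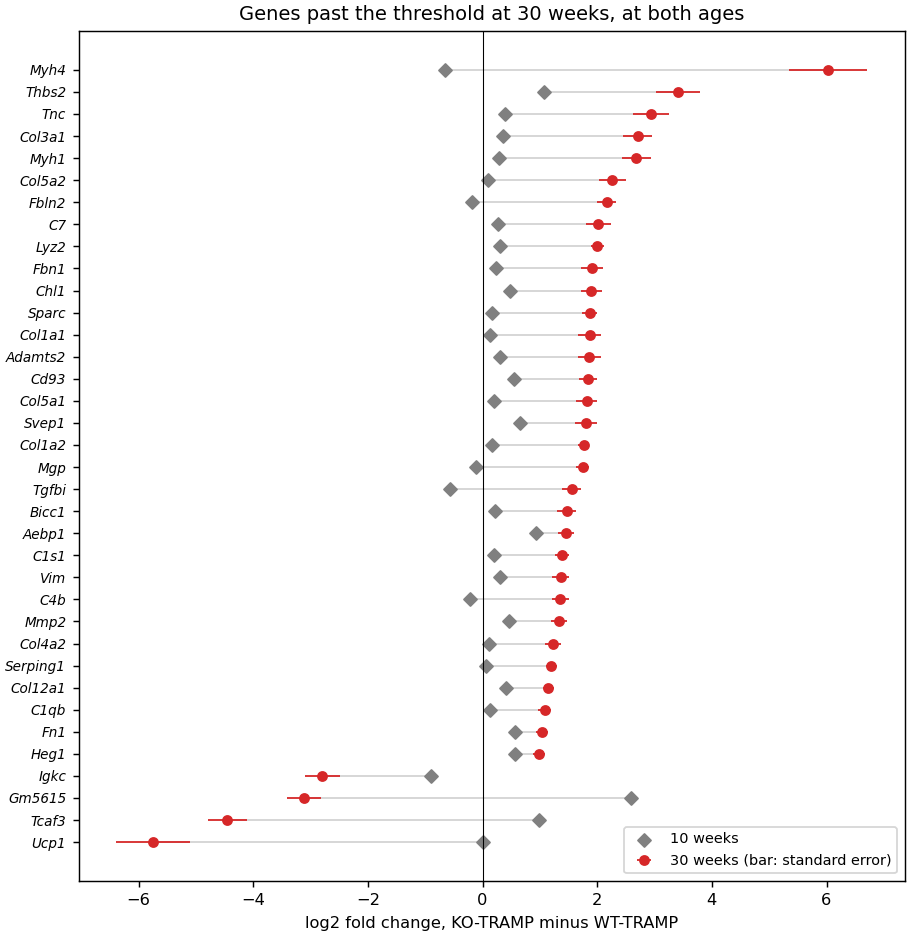
For each of the 36 genes past the threshold at 30 weeks, the x axis gives the log2 fold change (KO-TRAMP minus WT-TRAMP) at 30 weeks, with its standard error, and at 10 weeks. The 10-week values of the 32 genes that rose lie between −0.65 and 1.07, below the 30-week values by which these genes were picked.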

How the data were processed

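RNA of ventral and lateral prostate was sequenced by the authors, who trimmed reads (Trim Galore 0.4.1, cutadapt 1.18), aligned them with STAR 2.7.3a to GRCm38.p6 with nuclear copies of mitochondrial sequence masked, and estimated GENCODE vM24 transcripts with Salmon. Per the labels, DESeq2 1.26 was among the tools. The deposited signal is a normalized count per gene, scaled from estimated reads by 1 size factor for each library of a table. Dividing each library's values by its smallest value above 0, taken as 1 read, gave whole reads (to within 0.001) for 100% of values. The authors' tables of shrunken fold changes with s-values, and the A537T libraries, were not used. Columns carry library numbers, and WT-TRAMP is the set shared by the knockout and A537T tables of an age.

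Genes with a mean of at least 10 were tested on log2(normalized count + 1) with limma 3.58.1 (R 4.3.3, trend, two-sided, Benjamini-Hochberg, threshold 0.05), and with an interaction term for age. On the recovered reads, edgeR 4.0.16 (quasi-likelihood) called 15 genes and DESeq2 1.42.0 called 805. Other pseudocounts, minimum levels and scaling were tried, and each library was left out in turn. Leaving out libraries 12 and 18 together was chosen after seeing the data. The fit was tested on simulated data. The labels name replicates only, so p-values measure the spread between these samples, which may be technical. Members and gene lists were chosen with earlier results of these data known. Named genes were Elac2, every gene past the threshold, up to 10 per direction with the largest non-overlapping change at a mean of at least 100, and from each list the up to 4 largest changes, the up to 3 highest levels, members against the list's direction and genes the study discusses. Some genes of the lists are not reported here. Gene positions are from GENCODE vM21 on GRCm38, promoter windows from RefSeq.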

Additional observations from a re-analysis of the deposited data

How the results depend on the processing

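The call count rests on few libraries, and no library can be left out without changing it by over 1.5 times. The 36 genes called (32 higher, 4 lower) became 15 in edgeR (12 higher) and 805 in DESeq2 (571 higher, 234 lower), and with no minimum level 7 were lower. Leaving out 1 library gave 0 to 3011 genes, 0 to 1870 of them higher and 0 to 1141 lower. The most were called without library 16, and there all 36 were among them. Without libraries 12 and 18 together, limma and edgeR each called 0 genes, 0 higher and 0 lower, and DESeq2 was not run. Genes whose effect differed between ages numbered 0, 1 with a pseudocount of 5, 1 with no minimum and 0 to 1930 with 1 library left out, most without library 16. Calls at pseudocounts of 0.5 and 5, a minimum of 100 and TMM scaling stayed within 1.5 times.

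Among single genes, 7 changed sign, and Svs2, at −2.92 with all libraries, did so without library 10. Col27a1 was at 0.0033 in limma and 0.0032 in edgeR without libraries 12 and 18, and Col6a3 at 0.0034 in edgeR and 0.067 in edgeR without those libraries. With 1 library left out the values ran from −0.59 to 0.14 for Col24a1, −0.38 to 0.11 for Col27a1, −0.43 to 0.30 for Col6a3, −0.0089 to 0.18 for Krt18, −0.0018 to 1.07 for Mki67, −0.93 to 0.29 for Myh11 and −8.25 to 0.041 for Svs2. The cause was not tested. The median of the basement membrane list was 0.16 at a minimum of 100, where it had been −0.13. None of these 7 genes passed in limma or DESeq2. No paired analysis was possible because the columns carry library numbers and no replicate numbers.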

Other observations

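Several gene groups that the report does not treat were measured as well. DNA replication genes of S phase were higher in 20 of 24 cases at a median log2 fold change of 0.31, and 4 lay above WT-TRAMP in every knockout library. Pcna, the sliding clamp of replication, was at 1446, 1536 and 1578 normalized counts against 1644, 2679 and 2018. Axon guidance genes had a median of 0.42 over 30, which was 0.87 without library 16 and 0.08 without library 17. Ntn1, netrin 1, was at 95.1, 67.2 and 79.8 against 54.5, 1905 and 1116, high in libraries 17 and 18 and not in library 16. Basal epithelial Krt5 was at 79.4, 55.7 and 79.8 against 58.6, 864 and 602, and the 7 genes of that list had a median of 0.51. Krt14, also a basal keratin, ran against the list, at 38, 43.2 and 42.2 against 26.8, 8.02 and 17.8. It lay below WT-TRAMP in every knockout library (log2 fold change −1.33, limma adjusted p 0.355).

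Globin transcripts of red cells had a median of 0.91 over 5 genes with their heme enzyme Alas2. Hbb-bs, one of several near-identical globins that can share reads, was at 85, 69.1 and 77.5 against 105, 309 and 217. Sterol synthesis, the integrated stress response, paraspeckle genes and targets of p53 had medians of 0.02, −0.10, 0.08 and −0.09, with no gene past the threshold in limma or DESeq2 in any of the 4 (1, 0, 1 and 2 higher at an unadjusted p under 0.05). Cell cycle regulators of the Rb and E2F families had a median of 0.21, and Ccnd1, cyclin D1, was at 1449, 138 and 785 against 271, 235 and 273. By chromosome, 7 of the 36 genes past the threshold lay on chromosome 6, which holds 5.28% of the genes tested, and 6 on chromosome 11, which holds Elac2 and 7.5% of them.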
